A study of Mus musculus with 10 samples.

Results

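Transcripts of the intestinal epithelium were followed in messenger RNA of peritoneal lavage cells, the cells washed out of the abdominal cavity, from mice with sepsis. The genes were chosen by name, as 10 of the 34745 genes in the deposited table: Fabp1, Fabp2, Epcam, Vil1, Lgals4, Cdh17, Reg3b, Reg3g, Phgr1 and Apoa4. All 10 names were found, each as a single row. Sepsis had been caused by cecal ligation and puncture (CLP), in which the cecum is tied off and pierced so that gut contents leak into the cavity. The labels divide 10 libraries into 5 named NC (1 to 5) and 5 named AX (6 to 10). The series compares amlexanox, an inhibitor of the kinases TBK1 and IKKε, with vehicle, so the AX libraries were taken to be amlexanox-treated and the NC libraries vehicle-treated, although the labels spell out neither name. Every mouse had CLP. The sources used here do not state dose, time after surgery, strain, sex or age, and no unoperated mice were analysed here.

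The gut lining is a single sheet of polarised epithelial cells, mostly absorptive enterocytes with a brush border of microvilli, among which sit mucus-secreting goblet cells and rare hormone cells. Its lower end, the cecum and colon, differs from the small intestine in the transporters, lipid carriers and enzymes it makes. In CLP the pierced organ, the cecum, carries this lining itself. The cells of a lavage are mainly leukocytes.

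Levels are CPM, the count of a gene scaled to the library total. Totals ran from 10221170 in NC 1 to 13806885 in NC 2, so 3 counts, the limit that a count of 0 allows, correspond to 0.2173 to 0.2935 CPM. The 10 neutrophil markers summed to 6970 to 19180 CPM per library. The labels do not state that each library is from its own animal; should some share one, the p-values would reflect sample-to-sample spread that may be technical.

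Upstream sequence is shown first for 4 members in 2 pairs, because each pair is a gene family: Fabp1 and Fabp2, of which only Fabp2 was abundant, and Reg3b and Reg3g, whose levels were high in the same libraries. RefSeq windows of GRCm38.p6, the build called mm10 by the submitters, were found for 9 of the 10 members; Cdh17 is named only. Each line is taken from the 250 bases before the RefSeq start site, 5′ to 3′ on the gene's strand. For Fabp1 and Reg3b only the longest stretch outside UTRs of GENCODE M21 is shown, which does not hold their TATAAA whole. The Reg3b stretch is upstream of its RefSeq start site only. It lies inside the gene's span in the deposited table, which starts at base 78370657. Capitals mark matches, on either strand, to the letters TATAAA of a core promoter box, the letters TTTATG found in sites of CDX factors, the letters GTTAAT found in sites of HNF1, the letters CAAAGTC found in sites of HNF4, or the letters AGATAA found in sites of GATA factors.
Fabp1 chr6:71199629-71199826 (plus strand): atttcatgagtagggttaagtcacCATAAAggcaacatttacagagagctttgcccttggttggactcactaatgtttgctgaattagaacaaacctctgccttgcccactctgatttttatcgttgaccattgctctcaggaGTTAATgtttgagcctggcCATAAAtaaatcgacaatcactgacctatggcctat
Fabp2 chr3:122894822-122895071 (plus strand): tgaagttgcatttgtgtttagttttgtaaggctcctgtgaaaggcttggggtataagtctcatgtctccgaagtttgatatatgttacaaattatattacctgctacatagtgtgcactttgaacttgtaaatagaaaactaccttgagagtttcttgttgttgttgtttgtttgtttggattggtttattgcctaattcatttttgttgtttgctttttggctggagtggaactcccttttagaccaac
Reg3b chr6:78370707-78370860 (plus strand): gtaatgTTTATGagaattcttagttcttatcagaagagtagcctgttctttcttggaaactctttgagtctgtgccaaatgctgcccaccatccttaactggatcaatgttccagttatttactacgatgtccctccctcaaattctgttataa
Reg3g chr6:78468875-78469124 (minus strand): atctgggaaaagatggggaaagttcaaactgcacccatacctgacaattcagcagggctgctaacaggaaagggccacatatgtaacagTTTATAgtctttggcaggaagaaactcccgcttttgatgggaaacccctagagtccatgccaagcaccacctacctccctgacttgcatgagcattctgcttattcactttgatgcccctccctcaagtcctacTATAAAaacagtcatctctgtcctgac

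In windows of 300 bases, which add the first 50 bases after the start site, TATAAA was found in 3 of the 9 members (Fabp1, Reg3b and Reg3g) and in 13.6% of all 32851 RefSeq windows. TTTATG was found in 3 members (Fabp1, Reg3b and Epcam) and in 11.9% of all windows. GTTAAT was found in Fabp1 only, and in 7.1% of all windows. Neither CAAAGTC (4.44% of all windows) nor AGATAA (11.2%) was found in any of the 9. No match overlapped another. The Reg3b and Reg3g windows were alike over their whole length, with 69.0% identical positions in a global alignment, against 49.7% for Fabp1 and Fabp2. These matches are descriptions of letters, not of binding.

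In the deposited table, on mm10, the members are protein-coding genes with these spans. The carriers are Fabp1 (ENSMUSG00000054422) at chr6:71199827-71205023, Fabp2 (ENSMUSG00000023057) at chr3:122895072-122899506 and Apoa4 (ENSMUSG00000032080) at chr9:46240696-46243459. The structural and adhesion genes are Lgals4 (ENSMUSG00000053964) at chr7:28833854-28841708, Vil1 (ENSMUSG00000026175) at chr1:74409376-74435559, Epcam (ENSMUSG00000045394) at chr17:87635979-87651106 and Cdh17 (ENSMUSG00000028217) at chr4:11758147-11817895. The others are Reg3b (ENSMUSG00000071356) at chr6:78370657-78373466, Reg3g (ENSMUSG00000030017) at chr6:78466269-78468872 and Phgr1 (ENSMUSG00000046804) at chr2:118772769-118778165.

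Reads of the paralogs can be told apart only where their transcripts differ. The longest coding transcripts of Reg3b and Reg3g were 68.6% identical and shared no exact run longer than 35 bases, and those of Fabp1 and Fabp2 were 43.5% identical with no shared run longer than 9. The other overlap is with genes on the opposite strand: Fabp2 overlaps 4933405D12Rik, Vil1 overlaps Usp37, and Apoa4 overlaps Gm47528 and Gm10680. No source used here states whether the authors' counting used strand, so reads of these partners cannot be told apart.

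The 10 genes together ranged over 73.66-fold between libraries, and the spread lay within both groups. Their summed level was 944 CPM in NC 1, 30.06 in NC 2, 24.12 in NC 3, 331.3 in NC 4 and 51.7 in NC 5, and 416.3 CPM in AX 6, 23.75 in AX 7, 12.82 in AX 8, 97.91 in AX 9 and 15.89 in AX 10. Each group thus held a library far above the rest, NC 1 and AX 6, a second raised library, NC 4 and AX 9, and 3 low ones. As a share of all counts the sum was 0.0944% in NC 1 (95% Wilson interval 0.09254 to 0.0963%) and 0.001282% in AX 8 (0.001087 to 0.00151%); these intervals cover counting error only. In bulk RNA, fewer epithelial cells and less RNA per epithelial cell cannot be told apart.

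**Figure D1:**
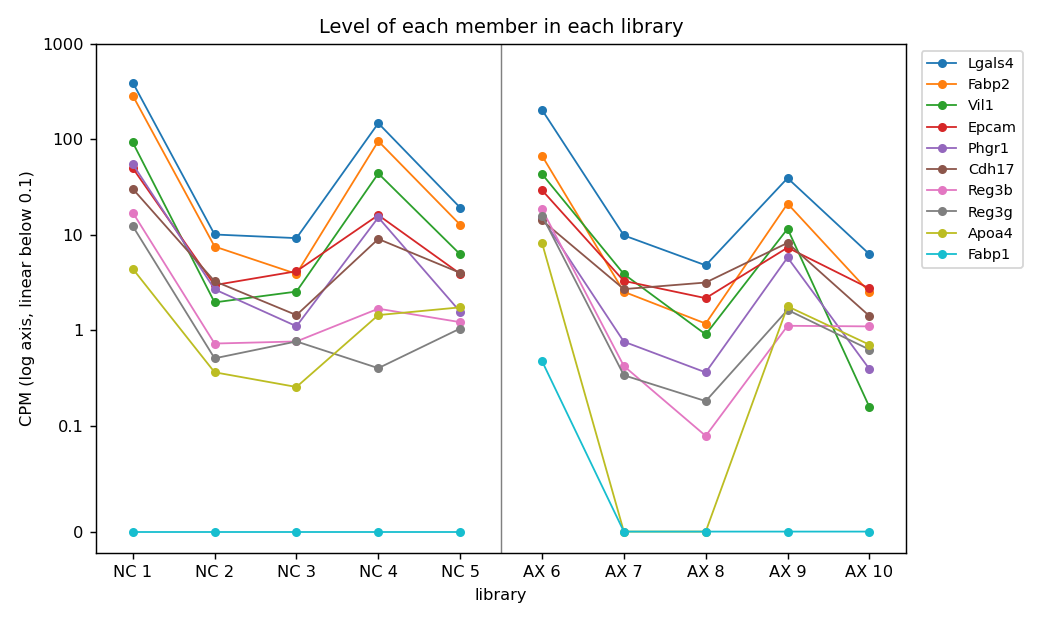
CPM of each of the 10 members (colours) in each library (x axis: 5 NC, then 5 AX); the y axis is logarithmic above 0.1 CPM and linear below, and lines only link points of the same gene. Lgals4 runs from 394 CPM in NC 1 to 4.783 in AX 8, and Fabp1 is at 0 in all libraries but AX 6.

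The structural and adhesion genes of the epithelium are described first. Lgals4 encodes galectin-4, a sugar-binding protein of the brush border of the gut. It stood at 394, 10.07, 9.226, 147.7 and 19.26 CPM in NC 1 to NC 5 and at 203.9, 9.854, 4.783, 39.28 and 6.261 CPM in AX 6 to AX 10. The high libraries were NC 1, AX 6 and NC 4, and the groups overlapped. Vil1 encodes villin, which bundles the actin core of microvilli. Its levels were 92.85, 1.956, 2.539, 43.91 and 6.245 CPM in NC 1 to NC 5 and 43.34, 3.874, 0.9025, 11.56 and 0.1565 CPM in AX 6 to AX 10. The order of the high libraries was nearly that of Lgals4, with NC 4 and AX 6 at almost the same level, while AX 10 held only 2 Vil1 counts.

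Epcam, the epithelial cell adhesion molecule, showed the same libraries high but a narrower range than Lgals4 and Vil1. It stood at 49.99, 2.97, 4.147, 16.08 and 3.903 CPM in NC 1 to NC 5 and at 29.34, 3.285, 2.166, 7.337 and 2.739 CPM in AX 6 to AX 10. Cdh17 encodes LI-cadherin, an adhesion molecule of intestinal epithelium. Its levels were 30.33, 3.259, 1.439, 9.038 and 3.99 CPM in NC 1 to NC 5 and 14.16, 2.695, 3.159, 8.227 and 1.409 CPM in AX 6 to AX 10. Between the highest library and the median of all 10, Cdh17 differed 8.368-fold and Epcam 12.42-fold, where Lgals4 differed 26.87-fold. Epcam was 10.9 to 18.7% of the Lgals4 CPM in NC 1, NC 4, AX 6 and AX 9 and 20.3 to 45.3% in the other libraries. Cdh17 did not divide the libraries in this way: it was 6.12 to 7.7% in NC 1, NC 4 and AX 6, but 20.9% in AX 9, and 15.6 to 66% in the others, where 66% was AX 8 alone and the next was 32.4%.

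Phgr1 encodes a small protein rich in proline, histidine and glycine that is made in gut epithelium. It stood at 54.98, 2.68, 1.1, 15.2 and 1.561 CPM in NC 1 to NC 5 and at 15.11, 0.758, 0.361, 5.781 and 0.3913 CPM in AX 6 to AX 10. NC 1 stood apart more than for the adhesion genes, at a level 25.93-fold above the median.

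The fatty acid and lipid carriers were unequal among themselves. Fabp2, the intestinal fatty acid binding protein of enterocyte cytosol, was with Lgals4 the largest contributor. It stood at 288, 7.532, 3.893, 95.81 and 12.75 CPM in NC 1 to NC 5 and at 67.38, 2.527, 1.173, 21.2 and 2.504 CPM in AX 6 to AX 10. The groups overlapped, although 3 of the 5 AX libraries were below every NC library. Fabp1, the liver-type carrier that small intestinal enterocytes and hepatocytes make in large amounts, was almost undetected. Its 6 counts in AX 6 were 0.4745 CPM (exact 95% Poisson interval 0.1741 to 1.033, counting error only), and the other 9 libraries had 0 counts, which allows up to 0.2935 CPM in the shallowest. No fold is given for it. Apoa4, an apolipoprotein of chylomicrons made in the small intestine, was low, at 4.403, 0.3621, 0.2539, 1.44 and 1.735 CPM in NC 1 to NC 5 and at 8.225, 0, 0, 1.779 and 0.7043 CPM in AX 6 to AX 10. It was highest in AX 6 rather than NC 1, and its 2 zeros allow up to 0.2527 CPM in AX 7 and 0.2708 CPM in AX 8.

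The antimicrobial lectins, secreted C-type lectins that the gut lining makes on contact with bacteria, followed another order. Reg3b stood at 17.12, 0.7243, 0.7618, 1.68 and 1.214 CPM in NC 1 to NC 5 and at 18.51, 0.4211, 0.09025, 1.112 and 1.096 CPM in AX 6 to AX 10. Reg3g, its neighbour on chromosome 6, stood at 12.33, 0.507, 0.7618, 0.3999 and 1.041 CPM in NC 1 to NC 5 and at 15.9, 0.3369, 0.1805, 1.631 and 0.6261 CPM in AX 6 to AX 10. Both were high in NC 1 and AX 6, and no other library exceeded 1.68 CPM. NC 4, which held 147.7 CPM of Lgals4, had only 0.3999 CPM (5 counts) of Reg3g. Relative to Lgals4, Reg3g was 3.13% in NC 1, 7.8% in AX 6, 4.15% in AX 9 and 0.271% in NC 4, and Reg3b was 4.35%, 9.08%, 2.83% and 1.14% in the same libraries. Fabp2, by contrast, was a larger part of the Lgals4 level in NC 1 (73.1%), NC 4 (64.9%) and AX 9 (54%) than in AX 6 (33%). These ratios are between single libraries and have no replicate check.

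**Figure D2:**
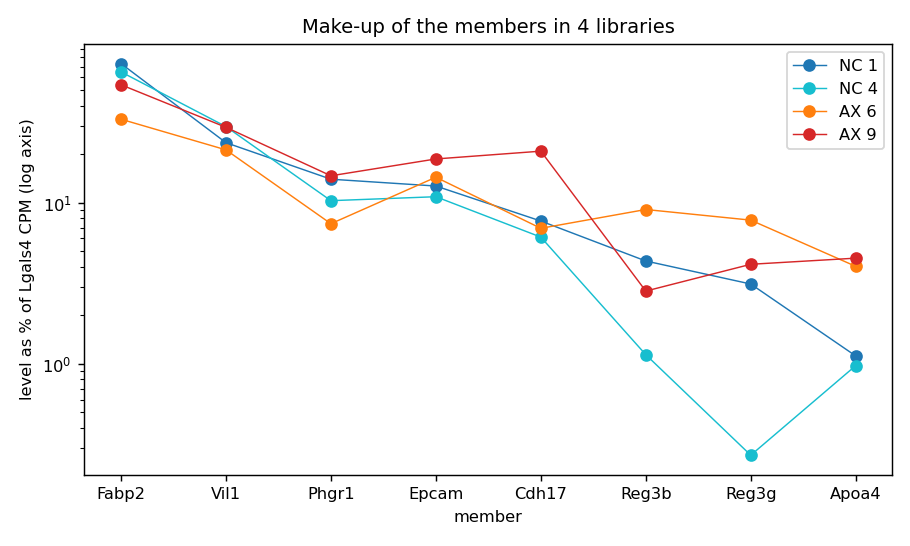
Level of 8 members as a percentage of the Lgals4 CPM in the same library (y axis, logarithmic) for NC 1, NC 4, AX 6 and AX 9, the libraries with the most Lgals4; lines only link points of a library. Reg3g falls to 0.271% in NC 4 and stands at 7.8% in AX 6, while Fabp2 stands between 33% and 73.1%.

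Per kilobase of transcript, on the authors' FPKM scale, the order of levels in NC 1 was Fabp2 (298.5 FPKM), Lgals4 (106.8), Phgr1 (52.62), Epcam (24.51), Vil1 (22.67), Reg3b (10.15), Cdh17 (6.315), Reg3g (4.785), Apoa4 (2.426) and Fabp1 (0). Neighbours in this order changed place between libraries. Vil1 was above Epcam in NC 4, at 10.72 against 7.88 FPKM, and Reg3b was below Cdh17 there, at 0.9962 against 1.882. Fabp2 was above Lgals4 in NC 1, NC 4 and AX 6 (69.82 against 55.28 FPKM) but level with it in AX 7 (2.618 against 2.672).

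The members varied together over the libraries. NC 1 was the highest library for 6 members and AX 6 for the other 4 (Fabp1, Reg3b, Reg3g and Apoa4). For 6 members (Fabp2, Epcam, Vil1, Lgals4, Cdh17 and Phgr1) the 4 highest libraries were NC 1, AX 6, NC 4 and AX 9. Among the 36 pairs of 9 members, leaving out Fabp1, the Spearman rank correlation over 10 libraries had a median of 0.86, the lowest, 0.55, between Vil1 and Reg3g. All pairs share the same libraries and totals, and no p is given.

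Other genes were ranked by the likeness of their log2 level over the 10 libraries to the mean of the members. Compared were 10680 genes with a mean log2(CPM + 0.5) of at least 1, leaving out names of the Gm, Rik, AI and BC type. Among these the most alike were Mal2, Prss32, Pls1, Clec2h, Prss30, Cldn7, Muc3 and Muc13. Pearson's r ran from 0.979 for Muc13 to 0.988 for Mal2, and Spearman's rho from 0.952 to 0.988. Without NC 1 and AX 6, the libraries farthest from the median, r ran from 0.941 for Muc3 to 0.986 for Prss32. These genes were ranked by r itself, so no p is given, and only 4 of the 8 were also among the first 8 by Spearman's rho. Several belong to epithelia by their known roles: Pls1 is a microvillus actin bundler, Cldn7 a claudin of epithelial junctions, and Muc3 and Muc13 are mucins of the enterocyte surface. Clec2h, a C-type lectin of gut epithelium, stood at 60.66 CPM in NC 1, 49.98 in AX 6, 27.83 in NC 4 and 0.5415 in AX 8. Of the 100 highest genes, 24 were on the 8 lists of gut and epithelial genes, which had 43 genes in the comparison. Those lists were chosen with earlier results of these data known, so this count is a description only.

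Other genes of the gut lining were compared to see which part of the gut and which of its cells the transcripts resembled. Genes typical of the colon and cecum were highest in the libraries that were high for the members. The 15 colon and cecum genes summed to 3859 CPM in NC 1, 1636 in NC 4, 1361 in AX 6, 454 in AX 9 and 90.7 to 191.7 CPM in the other libraries. Car1, a carbonic anhydrase of colonic surface cells, alone stood at 2790 CPM in NC 1, 1144 in NC 4, 929.6 in AX 6, 249.3 in AX 9 and 12.05 in AX 10. Krt20, a keratin of differentiated gut cells, ran from 2.504 CPM in AX 10 to 197 in NC 1, and Cyp2c55, a cytochrome P450 of the colon, from 0.722 in AX 8 to 351.1 in NC 1. Saa1, an acute-phase protein gene on the same list, did not follow: it was highest in AX 9, at 113.5 CPM, and stood at 59.58 CPM in NC 1. It made up most of the list's sum in AX 8 (65.79 CPM) and AX 10 (77.71 CPM). Without Saa1, a choice made after seeing the data, the other 14 genes summed to 3799 CPM in NC 1, 1563 in NC 4, 1314 in AX 6 and 340.4 in AX 9, but to 24.91 in AX 8 and 21.44 in AX 10.

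Genes of the small intestinal list were mixed. The 21 genes summed to 260.7 CPM in NC 1, 145.6 in AX 6, 123.4 in NC 4, 67.3 in AX 9 and 32.4 to 53.43 CPM in the others, and 13 of them were highest in NC 1. Clca4a, a chloride channel accessory protein, stood at 145.8 CPM in NC 1, 76.32 in AX 6 and 58.7 in NC 4. Apoa1, an apolipoprotein, stood at 20.45 CPM in NC 1, 19.3 in AX 6, 5.985 in NC 5 and 4.399 in NC 4. Mgam, the brush border enzyme maltase-glucoamylase, did not follow the members. It was highest in NC 1, at 8.903 CPM, but next highest in NC 3, at 5.755. It stood at 4.479 CPM in NC 4, 3.622 in AX 7, 3.243 in AX 6 and 2.075 in AX 9. The peptidase genes Mep1a and Mep1b and the retinol carrier gene Rbp2, named after their values were seen, reached 8.707, 7.436 and 8.414 CPM in NC 1. Anpep, a peptidase also made by myeloid cells, ran only from 21.51 to 46.57 CPM. At the other end, 5 of the 21 genes stayed under 1 CPM in every library. Among these, Lct, lactase, had 0 counts in all 10 libraries, which allows at most 0.2935 CPM in the shallowest, and Sis, sucrase-isomaltase, reached 0.8805 CPM in NC 1 and was at 0 in 7 libraries.

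Goblet cell genes appeared in the same libraries. The 11 genes summed to 221.2 CPM in NC 1, 113.6 in AX 6, 103.7 in NC 4 and 24.75 in AX 9, against 3.791 to 22.9 CPM elsewhere, and all 11 were highest in NC 1. Zg16, a lectin of mucus granules, stood at 63.4 CPM in NC 1, 40.15 in NC 4 and 29.26 in AX 6, and Tff3, a trefoil peptide, at 54.89, 23.51 and 22.22 CPM. Paneth cells left no such trace: of the 6 genes found, 5 stayed under 1 CPM in every library, and Lyz1, which myeloid cells also make, ran from 19.64 to 60.4 CPM. The hormone gene Sct reached 4.109 CPM in NC 1, while Gcg and Chga were highest in AX 10, at 2.504 and 2.113 CPM.

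Transcription factors of intestinal identity were measurable as well. Hnf4a stood at 55.57 CPM in NC 1, 38.15 in NC 4, 31.63 in AX 6, 9.116 in AX 9 and 0.7826 in AX 10. Cdx2, a homeobox factor that sets intestinal fate, stood at 32.58 CPM in NC 1, 15.28 in NC 4, 11.07 in AX 6 and 0.07243 in NC 2, and Cdx1 at 19.37, 10.48, 8.146 and 0.7243 CPM in the same libraries. Vdr, with the highest mean CPM of the transcription factor list (20.11), did not follow. It stood at 40.6 CPM in NC 1 and 23.91 in NC 4, but at 14.63 in AX 6, below 23.41 in AX 7. Of the other gut antimicrobials, Lypd8, which keeps flagellated bacteria off the colonic surface, stood at 543.4 CPM in NC 1, 312.2 in AX 6 and 229.7 in NC 4. Lypd8 and Reg4 (20.94 CPM in NC 1, 11.12 in NC 4, 4.271 in AX 6) were high in NC 4, where Reg3g was not. Dmbt1 was likewise raised in NC 4, at 18.56 CPM beside 27.88 in NC 1 and 25.7 in AX 6. Sprr1a, a gene of the epithelial barrier, was instead high in NC 1 and AX 6, at 59.48 and 52.67 CPM, and stood at 10.24 CPM in NC 4.

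Markers of other tissues were set beside the members. The 10 mesothelial markers, genes of the lining of the cavity, summed to 1418 CPM in AX 6 and 702.4 in NC 1, but to 139.5 in NC 4 and 101.7 to 287 in the others. This sum was therefore high in the same 2 libraries as Reg3b and Reg3g, and not in NC 4. Not every gene of the list followed it. Wt1, named after its values were seen, was highest in AX 8, at 17.24 CPM, against 14.71 in AX 6 and 9.49 in NC 1. Krt19 stood at 272.8 CPM in NC 1 and 269.6 in AX 6 and was next highest in NC 4, at 73.18. The part of gut cells in the Krt19 level was not tested. Msln stood at 748.9 CPM in AX 6 and 233.6 in NC 1, against 29.19 in NC 4. Krt18, shared by gut and mesothelial cells, likewise stood at 492 CPM in AX 6, 161.3 in NC 1 and 18.32 in NC 4. The mesothelial list entered the alternative fits given with the group comparison.

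Pancreatic and liver genes were set beside Reg3b, Fabp1 and Apoa4, which these organs can also make, and were low. The 10 pancreatic acinar genes summed to 14 CPM in AX 6 and 1.27 to 6.104 CPM elsewhere, and 9 of them were highest in AX 6, as for the lipase Pnlip at 2.531 CPM. The hepatocyte list summed to 23.17 CPM in AX 6 and 6.261 to 17.04 elsewhere. Ambp supplied 9.569 CPM in AX 6 but was highest in NC 4, at 16.48. Albumin (Alb) stood at 6.327 CPM in AX 6, 3.159 in AX 8, 1.648 in NC 5 and 1.076 in NC 1. The fibrinogen genes Fga and Fgb were highest in AX 8, at 2.888 and 2.798 CPM, against 1.74 and 1.977 in AX 6. The part of these tissues in the Reg3b, Fabp1 and Apoa4 levels of AX 6 was not tested. Stomach genes were under 1 CPM in every library, 6 of 8 with no count. The smooth muscle list, for the gut wall, ran from 11.55 CPM in AX 8 to 32.48 in NC 1. Of its 7 genes Acta2 ran from 5.415 to 20.64 CPM and was highest in AX 7, while Synpo2 and Des were highest in NC 1, at 12.62 and 5.968 CPM. Myh11, Actg2 and Cnn1 stayed under 1 CPM in every library. The part of smooth muscle in the member levels of NC 1 was not tested.

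**Figure D3:**
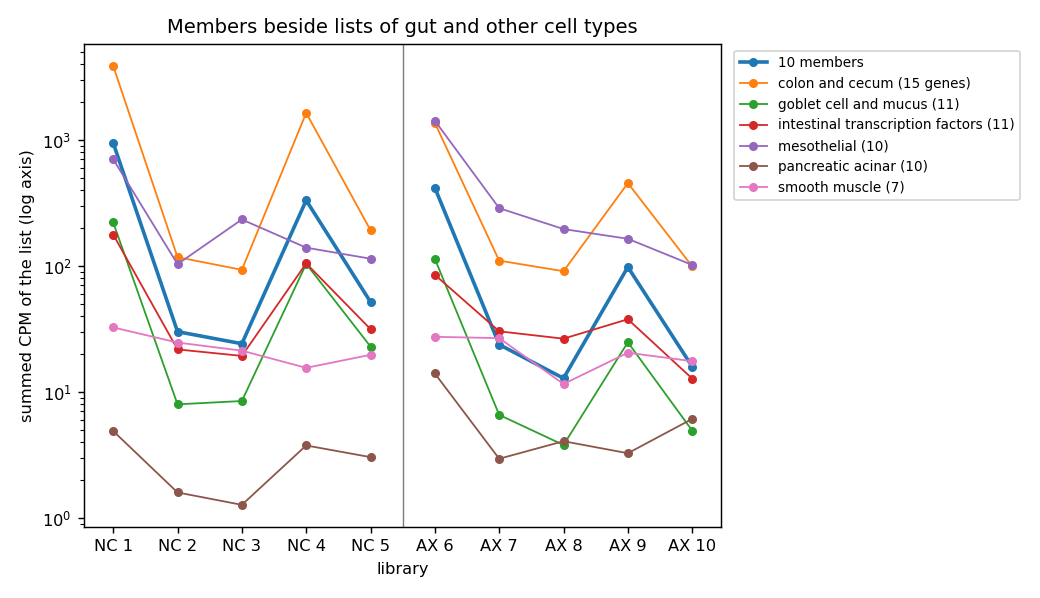
Summed CPM of the 10 members and of 6 marker lists (y axis, logarithmic) in each library; lines only link points of a list within a group. The colon and cecum list follows the members in NC 1, NC 4, AX 6 and AX 9, whereas the mesothelial list is high in AX 6 and NC 1 and at 139.5 CPM in NC 4.

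AX was compared with NC for the level of intestinal RNA in the lavage. No member passed the test. Means were lower in AX for most members, but the SD exceeded the mean in both groups for the sum: 113.3 ± 173 CPM in AX and 276.2 ± 394.8 CPM in NC (SD, n = 5 each), a ratio of 0.41, with medians of 23.75 and 51.7 CPM. The ratio was 1.04 without NC 1 and 0.136 without AX 6, and 0.344 without both.

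In edgeR's quasi-likelihood test over 12264 genes, 0 genes passed a Benjamini-Hochberg adjusted p of 0.05, a background of 0%, and the adjusted p was 1 for each of the 8 members that passed the filter on low counts. An unadjusted p under 0.05 was reached by 113 genes, or 0.921%, and by 0 members. DESeq2 and limma-voom also called 0 genes. Of the 8 members 6 had a lower fitted value in AX, where 46.4% of all genes tested did, and their median log2 fold change was -0.77 beside 0.02 for all genes. Since they vary together, these 8 are not 8 independent observations. The groups overlapped for all 10 members; over all genes tested they did not overlap for 0.0978%.

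Fabp2 had the largest fitted difference, with 18.96 ± 28.31 CPM in AX and 81.6 ± 121.5 CPM in NC (SD, n = 5 each). In edgeR this was a log2 fold change of -1.93 ± 1.33 (SE). At 95% confidence the fold lay anywhere between 0.0348 and 1.99. Phgr1, at 4.479 ± 6.366 against 15.1 ± 23.04 CPM, had a log2 fold change of -1.57 ± 1.25 (SE). Vil1 stood at 11.97 ± 18.11 against 29.5 ± 39.52 CPM, with -1.14 ± 1.31. Lgals4 stood at 52.81 ± 85.62 against 116.1 ± 166 CPM, with -0.94 ± 1.26. For each of these genes the difference of means was smaller than the SD among NC libraries. For Fabp2 and Phgr1 it was larger than the SD among AX libraries. The 95% intervals leave room for changes in either direction.

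The adhesion genes had smaller fitted differences, with log2 fold changes of -0.61 ± 0.93 (SE) for Epcam and -0.55 ± 0.81 for Cdh17. Reg3b and Apoa4 had fitted values above 0, at 0.23 ± 1.28 and 0.55 ± 1.2, with means of 4.245 against 4.3 CPM for Reg3b and 2.142 against 1.639 CPM for Apoa4. The fitted value of Reg3b turned to -0.01 with library totals in place of TMM scaling. Reg3g did not pass the filter; its level was 3.734 ± 6.822 CPM in AX against 3.007 ± 5.216 CPM in NC. By a two-sided exact permutation test p was 0.714 (n = 5 each), where the smallest p possible is 0.00794. The same exact test gave p = 0.294 for Fabp2 and 0.579 for Lgals4.

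The direction changed with single libraries. Without NC 1 only 3 of the 8 tested members were lower in AX, and Epcam, Lgals4 and Cdh17 had log2 fold changes of 0.45, 0.24 and 0.45. Without AX 6 all 8 were lower, with Fabp2 at -3.56 and Lgals4 at -2.93. In that edgeR fit 5 of the 8 (Fabp2, Lgals4, Reg3b, Phgr1 and Epcam) had an unadjusted p under 0.05, from 0.0248 to 0.0407, as did 3.07% of all genes, and each had an adjusted p of 1. Without both, the 7 members still tested were all lower, 0 of them at an unadjusted p under 0.05, Fabp2 at -2.26 and Lgals4 at -1.75. With the mean level of the mesothelial list as covariate, Fabp2 stood at -2.63 (unadjusted p = 0.0368, adjusted p = 0.999 with edgeR), Lgals4 at -2.03, Reg3b at -1.02 and Apoa4 at -0.45. That covariate includes Krt19, at 272.8 CPM in NC 1, 269.6 in AX 6 and 73.18 in NC 4. Whether it carries part of the members' own signal was not tested. No member passed the adjusted threshold in any of these fits.

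**Figure D4:**
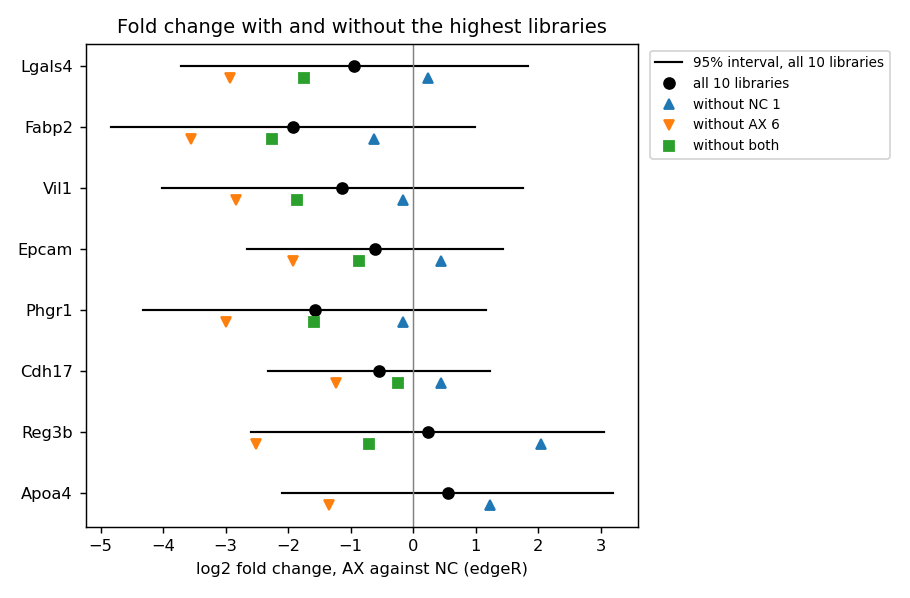
Log2 fold change of AX against NC (x axis) for the 8 members tested, with its 95% interval over all 10 libraries (black), and the value without NC 1, without AX 6 and without both (coloured marks). Every interval includes 0, and leaving out NC 1 or AX 6 moves the values in opposite directions, as for Lgals4 at 0.24 and -2.93.

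In edgeR 0 genes of the other gut and epithelial lists were called, and 0 had an unadjusted p under 0.05. In the colon and cecum list 10 of 11 tested genes had a lower fitted value in AX (median log2 fold change -1.27), in the goblet list 6 of 6 (-1.34), in the transcription factor list 7 of 7 (-0.73) and in the small intestinal list 5 of 6 (-0.44). In the junction and keratin list 9 of 15 were lower (-0.32) and in the antimicrobial list 2 of 3 (-0.39), while the single tested genes of the Paneth and the enteroendocrine and tuft lists were higher in AX (0.14 and 0.28). All of these genes were measured in the same libraries, of which NC 1 was the highest for 14 of 15 colon and cecum genes. The mesothelial list went the other way, with 9 of 9 tested genes higher in AX (median 1.03) and AX 6 the highest library for 7 of its 10.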

How the data were processed

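Polyadenylated RNA of 10 lavage samples was sequenced. Reads had been aligned with HISAT2 2.0.4 to the mouse build mm10 (from the submitters' processing notes). No source used here states the counting tool, annotation or strand setting. The deposited counts are raw whole numbers per gene. The deposited FPKM values, per the file headers, were used to compare levels between genes and in an alternative test.

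CPM was the count over the library total. AX and NC were compared with edgeR 4.0.16 in R 4.3.3 (filterByExpr, TMM, two-sided quasi-likelihood F test, Benjamini-Hochberg adjustment over 12264 genes), without covariates, and single genes by exact permutation over 252 arrangements. All 45 pairs of libraries were distinct (chi-square at least 43.1 for each degree of freedom). Alternatives were DESeq2 1.42.0, limma 3.58.1 (voom, or log2(FPKM + 1) and log2(FPKM + 0.1)), other scalings and filters, a mesothelial covariate, and leaving out libraries; leaving out NC 1 and AX 6 together, or Saa1 from its list, was added after seeing the data. The fit was tested on simulated data. Members and lists were chosen with earlier results of these data known. From each list, up to 4 genes with the highest mean CPM and defining genes near 0 were eligible to be named, beside the 10 members and the 8 genes most like them. The table's gene spans equal those of GENCODE M21 for 9 members; Epcam ends at another base. Motifs were found with Python 3.11.15 and alignments made with biopython 1.88.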

Additional observations from a re-analysis of the deposited data

Results flagged for a closer look

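In 13 of the 21 sets of 5 libraries examined for the members and their sum, the highest library stood apart from the next by more than Dixon's 95% critical value of 0.71 of the range. Chance flags about 1 in 20 sets of normally distributed values, and these sets share libraries and are skewed. The flag for Fabp1 was fixed once AX 6 held any count, since every other AX library was at 0. In AX the library was AX 6 each time: Reg3b at 18.51 CPM (next 1.112), Reg3g at 15.9 (next 1.631), Lgals4 at 203.9 (next 39.28), Epcam at 29.34 (next 7.337), Vil1 at 43.34 (next 11.56), Apoa4 at 8.225 (next 1.779), Fabp1 at 0.4745 (next 0) and the sum of the 10 members at 416.3 CPM (next 97.91). In NC it was NC 1 each time: Reg3g at 12.33 CPM (next 1.041), Reg3b at 17.12 (next 1.68), Phgr1 at 54.98 (next 15.2), Cdh17 at 30.33 (next 9.038) and Epcam at 49.99 (next 16.08).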

How the results depend on the processing

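No member passed an adjusted p of 0.05 under any alternative, and 0 genes were called in the alternatives run except without NC 3, where 1 gene, Rnf24, chosen after its value was seen, passed (log2 fold change -5.75, adjusted p = 0.0174 with edgeR). Fabp2, Vil1 and Phgr1 had a lower fitted value in AX under every alternative in which they were tested. Leaving out each library in turn gave log2 fold changes from -3.56 to -0.62 for Fabp2, -2.84 to -0.16 for Vil1, -3 to -0.16 for Phgr1, -1.93 to 0.45 for Epcam, -2.93 to 0.24 for Lgals4, -1.24 to 0.45 for Cdh17, -2.52 to 2.04 for Reg3b and -1.34 to 1.23 for Apoa4. For each, the lowest value came without AX 6 and the highest without NC 1. The number of members lower in AX ran from 3 to 8, the number of genes called from 0 to 1, and the ratio of summed CPM from 0.136 to 1.04. Reg3b turned to -0.01 without TMM scaling, -1.02 with the mesothelial covariate, -0.64 with limma-voom and -0.7 without NC 1 and AX 6 together, and Apoa4 to -0.45 with that covariate and -1.02 with limma-voom; the cause was not tested. DESeq2 gave no p for Reg3b. Low counts limit Reg3b, Reg3g, Apoa4 and Fabp1 outside NC 1 and AX 6. On the FPKM scale 5 members (Fabp2, Epcam, Vil1, Lgals4 and Phgr1) had at least 1 FPKM in 5 libraries and were tested. The number of members tested varied from 3 to 10 with the filter. No paired analysis was possible because the groups share no replicate numbers.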
